A study of Mus musculus with 12 samples.

Results

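The genes described here were 10 components of the transforming growth factor beta (TGFβ) pathway in mouse helper T cells: the ligand gene Tgfb1, the receptor genes Tgfbr1, Tgfbr2, and Tgfbr3, the signal carriers Smad2, Smad3, and Smad4, the inhibitory Smad7, and the corepressors Ski and Skil. They were chosen by name, with earlier results of these data known. All 10 were listed among the 11077 genes of the Th17 table and the 11056 genes of the iTreg table. RNA had been sequenced from 12 cultures, 4 each of Th0, Th17, and iTreg cells. All 3 groups started as CD4+CD62L+ naïve T cells from spleens of C57BL/6 mice aged 8 to 10 weeks and were activated for 3 d with plate-bound anti-CD3 and anti-CD28, each at 1 μg/ml. Th0 cells received nothing more. Th17 cells also received IL6 at 30 ng/ml, TGFb1 at 5 ng/ml, and neutralizing anti-IL4 and anti-IFNγ, each at 10 μg/ml. iTreg cells (induced regulatory T cells) received IL2 at 10 ng/ml and TGFb1 at 10 ng/ml by the sample labels, while the methods of the study name a higher dose. Each polarized group therefore differed from Th0 by several added agents, and no group had TGFb1 alone.

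TGFβ is secreted as an inactive complex and, once released, binds a type II receptor (encoded by Tgfbr2), which recruits and phosphorylates a type I receptor (encoded by Tgfbr1). The type I receptor phosphorylates SMAD2 and SMAD3, which join SMAD4 and enter the nucleus. SMAD7 blocks the type I receptor, SKI and SKIL hold SMAD complexes in a repressed state, and several of these inhibitors are themselves known target genes of the pathway. In naïve CD4+ T cells, TGFβ together with IL6 drives Th17 differentiation, and TGFβ with IL2 drives expression of Foxp3.

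Expression was measured as FPKM, a read level per length of transcript and per depth of the library. The authors deposited 2 tables that were scaled separately and hold the same 4 Th0 libraries, so that the 2 comparisons with Th0 share their controls and are set side by side only. Reads recovered from the FPKM steps came to 7182208 to 10628620 per library on listed genes. The fewest reads behind any value of the 10 genes were 166, for Tgfbr3 in an iTreg library, with a counting error of 7.76%. Libraries are named by the beginning of their column heading (M22, M29, M42, or M43), which recurs in each group. The study names a pair-wise design for its own tests, whereas the main fit here was unpaired. Since libraries whose headings begin alike deviated together from their group means, each comparison was also fitted with the beginning as a block. Markers of the polarized cells were present. The Th17 gene Il17f stood at 281 to 788 FPKM in Th17 libraries against 0.0909 to 0.184 in Th0, and Foxp3, the lineage factor of regulatory T cells, at 62.0 to 91.7 FPKM in iTreg libraries against 2.01 to 7.15 in Th0. One Th17 library stood apart by its Foxp3 level, which was 42.5 FPKM in M43 and 0.499, 0.502, and 4.50 in the other 3. The iTreg libraries also held Il17f at 26.9 to 99.2 FPKM. Of the markers of other cell types, Cd8a, Cd79b, Ms4a1, Lyz2, Csf1r, Adgre1, Pf4, Ppbp, and the NK cell and stromal genes were not listed in either table, and Cd8b1, Cd79a, and Itga2b did not pass the test, with or without the block. Cd68, a myeloid marker, was at 3.22 to 4.90 FPKM in Th0 and 5.46 to 15.9 in Th17 libraries, without overlap (limma, adjusted p = 0.055, or 0.0186 with the block), and its part in the results was not tested. Among the T cell genes, Cd4 fell by 1.54 on the log2 scale in Th17 cells (adjusted p = 0.038), and Cd3d, Cd3e, and Cd3g were at 120 to 467 FPKM. With the block, Cd3d and Cd3g were called down in Th17 (-0.63 each, adjusted p = 0.00215 and 0.0043) and Cd3d, Cd3e, and Cd3g in iTreg cells (-0.51, -0.46, and -0.61, adjusted p = 0.0164, 0.00458, and 0.0121), and their part in the results was not tested either. In bulk RNA, fewer cells of one type and less RNA per cell cannot be told apart.

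At 3 d, the gene for the type I receptor was the most changed of the 10 in both polarized groups, and Smad3, Smad7, Ski, and Skil rose in both, whereas Smad2 and Smad4 did not pass the test in either. A gene was called when the p-value of limma, adjusted by the Benjamini-Hochberg method over all genes tested, was under 0.05. In Th17 versus Th0, 5 of the 10 genes were called, all of them up (Tgfbr1, Smad3, Smad7, Ski, and Skil), while 19.3% of the 10269 genes tested were called and 10.6% were called up. In iTreg versus Th0, the same 5 genes and Tgfb1 were called up, 6 of the 10, while 16.6% of the 10208 genes tested were called and 8.36% were called up. The median log2 fold change of the 10 genes was 0.95 in Th17 and 0.68 in iTreg cells, against -0.0007 and 0.011 for all genes tested. Every Th17 library was above every Th0 library for 5 of the 10 genes and for 13.2% of all genes tested, and every iTreg library for 6 of the 10 and for 11.7%. With the block, 6 of the 10 genes were called in Th17, where 37.8% of all genes were, and 8 of the 10 in iTreg cells, where 40.9% were.

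**Figure D1:**
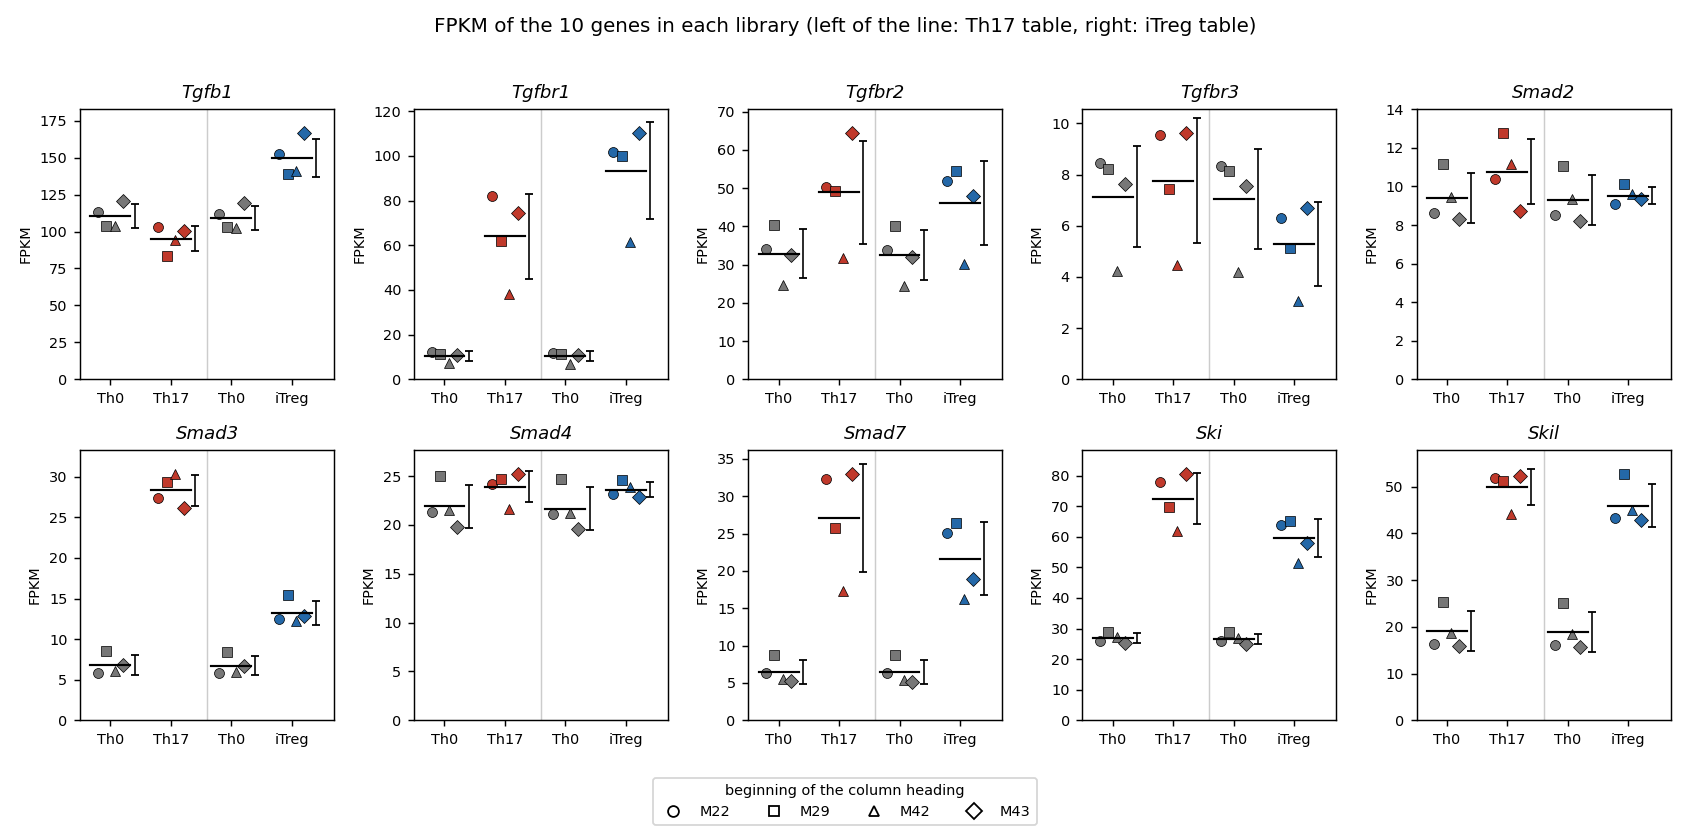
FPKM (vertical axes, from 0) of the 10 genes in each library, with the Th17 table left of the grey line and the iTreg table right of it. Points are libraries, shapes give the beginning of the column heading, horizontal lines are group means, and bars are 1 SD over 4 libraries. All polarized libraries sit above all Th0 libraries for Tgfbr1, Smad3, Smad7, Ski, and Skil, and the M42 libraries are the lowest of each group for the 3 receptor genes.

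**Figure D2:**
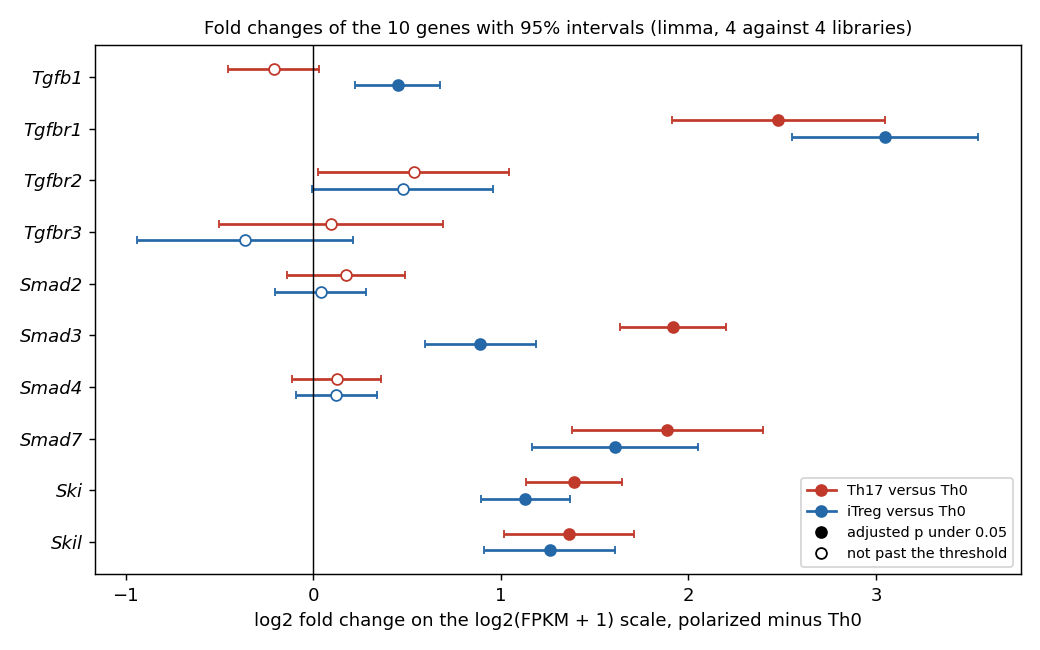
Log2 fold changes on the log2(FPKM + 1) scale (horizontal axis, polarized minus Th0) with 95% limma intervals, for the 10 genes in Th17 (red) and iTreg cells (blue), 4 against 4 libraries. Filled points passed an adjusted p of 0.05. Tgfbr1 lies farthest right in both comparisons, and Tgfb1 has a point left of 0 in Th17 and right of 0 in iTreg cells.

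Tgfb1 (chr7:25687002-25705077, plus strand, GRCm38), the gene for the ligand itself, was the most abundant of the 10 in every group. It stood at 113, 104, 104, and 121 FPKM in the Th0 libraries M22, M29, M42, and M43 and at 103, 83.4, 94.6, and 100.1 FPKM in the Th17 libraries in the same order. Every Th17 library was below every Th0 library, by a log2 fold change of -0.21 ± 0.11 (SE, n = 4 against 4) that did not pass in limma (adjusted p = 0.21, or 0.082 with the block). The two-sided exact permutation test, not adjusted over genes, gave 0.029. This is the smallest p that 4 libraries against 4 can reach, and any gene without overlap reaches it. In iTreg cells, Tgfb1 was at 153, 139, 141, and 167 FPKM, with every library above the 102 to 119 FPKM of Th0 in that table, and rose by 0.45 ± 0.10 on the log2 scale (limma, adjusted p = 0.016). Within each heading beginning, the iTreg library held 1.34 to 1.40 times the Th0 level and the Th17 library 0.801 to 0.913 times. Both polarized media contained added TGFb1 protein, which RNA levels do not measure.

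Tgfbr1 (chr4:47353222-47414931, plus strand) encodes the type I receptor kinase. It was at 12.0, 11.5, 7.12, and 11.1 FPKM in the Th0 libraries (M22, M29, M42, and M43) and at 81.9, 61.8, 38.4, and 74.4 FPKM in Th17 libraries, a 6.14-fold difference of the means. In the iTreg libraries, it reached 102, 100.07, 61.4, and 110.2 FPKM, which was 9.04-fold above the Th0 mean of that table. The groups did not overlap, and the lowest polarized library, M42 of Th17, was still above 3 times the highest Th0 library. The log2 fold changes were 2.48 ± 0.25 in Th17 (SE, limma, adjusted p = 2.33e-04) and 3.05 ± 0.22 in iTreg cells (adjusted p = 5.57e-05). The M42 library was the lowest of its group in all 3 groups, and the fold within a heading beginning varied less than the levels did, from 5.37 to 6.80 in Th17 and from 8.57 to 10.05 in iTreg cells. Without the Th17 library with high Foxp3, the log2 fold change was 2.39 (adjusted p = 0.00108).

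Tgfbr2 (chr9:116084293-116175360, minus strand) encodes the type II receptor that binds the ligand first. Its levels were 34.1, 40.3, 24.6, and 32.4 FPKM in Th0, 50.3, 49.1, 31.6, and 64.3 FPKM in Th17, and 51.9, 54.4, 30.1, and 47.9 FPKM in iTreg libraries, again in the order M22, M29, M42, and M43. The polarized and Th0 libraries overlapped because the M42 libraries were low in each group, but the polarized library was the higher of each of the 4 pairs with a shared beginning, in both comparisons. The log2 fold changes of 0.54 ± 0.22 (95% interval 0.027 to 1.04) in Th17 and 0.48 ± 0.21 (-0.0068 to 0.96) in iTreg cells did not pass in limma (adjusted p = 0.14 and 0.17). With the block, both passed (adjusted p = 0.018 and 0.0035). Both also passed when the polarized M42 library was left out, with log2 fold changes of 0.73 (limma, adjusted p = 0.026) and 0.66 (adjusted p = 0.038), whereas leaving out the Th17 M43 library gave 0.39 (adjusted p = 0.28). Over all single libraries left out, the adjusted p reached 0.30 in Th17 and 0.33 in iTreg cells.

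The window before the start site of these 2 receptor genes and of Smad3 is shown because Tgfbr1 and Smad3 rose in both groups and Tgfbr2, which encodes the partner of the type I receptor, did not pass without the block. Each window holds the 250 bases upstream of a RefSeq start site (GRCm38.p6), written in the direction of the gene. Capitals mark matches, on either strand, to the SMAD-binding letters CAGAC and to the GC-rich SMAD motif GGCGC. The palindrome GTCTAGAC was also searched, and a run GGCGCC counts as 2 overlapping matches of GGCGC, 1 on each strand.
Tgfbr1, chr4:47352972-47353221, plus strand: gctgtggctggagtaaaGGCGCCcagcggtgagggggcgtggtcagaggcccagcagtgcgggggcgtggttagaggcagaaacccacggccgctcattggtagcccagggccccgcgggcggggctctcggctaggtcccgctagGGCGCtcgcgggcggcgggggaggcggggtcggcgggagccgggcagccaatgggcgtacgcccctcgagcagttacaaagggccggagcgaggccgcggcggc
Tgfbr2, chr9:116175364-116175613, minus strand: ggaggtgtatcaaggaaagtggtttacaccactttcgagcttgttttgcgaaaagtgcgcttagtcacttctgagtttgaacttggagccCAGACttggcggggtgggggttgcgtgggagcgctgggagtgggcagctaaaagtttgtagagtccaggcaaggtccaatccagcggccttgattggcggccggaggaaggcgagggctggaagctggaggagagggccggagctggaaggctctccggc
Smad3, chr9:63757995-63758244, minus strand: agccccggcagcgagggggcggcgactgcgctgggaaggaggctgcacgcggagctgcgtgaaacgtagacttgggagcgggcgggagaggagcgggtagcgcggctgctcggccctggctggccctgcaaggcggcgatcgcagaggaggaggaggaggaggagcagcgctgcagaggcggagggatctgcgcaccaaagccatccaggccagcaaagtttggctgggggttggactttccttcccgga
The Tgfbr1 window held 3 GGCGC matches and no CAGAC, the Tgfbr2 window 1 CAGAC match and no GGCGC, and the Smad3 window neither. Windows of 5 of the 10 genes are reported, and of the 2 not shown, Ski had 7 GGCGC matches and Tgfb1 had 1, both without CAGAC. A second RefSeq start of Tgfbr1 (window chr4:47385966-47386215) had 1 CAGAC match and no GGCGC. GTCTAGAC occurred in none of these windows. Windows of Smad2, Smad4, Smad7, Skil, and Tgfbr3 are not reported here, so these counts do not cover them. Among all 32851 windows of this length, 42.2% held CAGAC, 32.0% held GGCGC, and 0.167% held GTCTAGAC. The matches are letters in a window and say nothing about binding.

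Tgfbr3 (chr5:107106570-107289629, minus strand) encodes betaglycan, a co-receptor that presents ligand to the type II receptor. It was at 8.45, 8.23, 4.23, and 7.63 FPKM in Th0, 9.56, 7.43, 4.45, and 9.62 in Th17, and 6.31, 5.12, 3.04, and 6.68 in iTreg libraries (M22, M29, M42, and M43). The groups overlapped in both comparisons, and the log2 fold changes were 0.10 ± 0.26 in Th17 (limma, adjusted p = 0.84) and -0.36 ± 0.25 in iTreg cells (adjusted p = 0.39). Within the heading beginnings, the iTreg library was the lower in 4 of 4 pairs, at 0.627 to 0.887 times the Th0 level, and with the block the gene was called down in iTreg cells (adjusted p = 0.015). Of its exonic bases, 4.54% are shared with the annotated locus Gm43422 on the same strand. The exons of the other 9 genes shared none with another gene of the GENCODE annotation (M21).

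SMAD2 and SMAD3 are the receptor-activated SMADs of the TGFβ branch, and their genes differed in these libraries. Smad3 (chr9:63646767-63757994, minus strand) stood at 5.85, 8.48, 6.07, and 6.82 FPKM in Th0 libraries and at 27.4, 29.4, 30.3, and 26.2 FPKM in Th17 libraries (M22, M29, M42, and M43). The Th17 libraries lay close together and far above Th0, with a log2 fold change of 1.92 ± 0.12 (limma, adjusted p = 2.49e-05). In iTreg libraries, Smad3 was at 12.5, 15.5, 12.2, and 12.9 FPKM, again without overlap with Th0 (5.78 to 8.41), and rose by 0.89 ± 0.13 (adjusted p = 0.00236). Unlike the receptor genes, it was not lowest in the M42 library of Th0 or Th17. Smad2 ranged from 8.31 to 11.2 FPKM in Th0, from 8.71 to 12.8 in Th17, and from 9.07 to 10.1 in iTreg libraries. Its groups overlapped, and its log2 fold changes were 0.17 (95% interval -0.14 to 0.49) and 0.041 (-0.20 to 0.28), with adjusted p = 0.43 and 0.85. Smad4, which encodes the shared partner of the activated SMADs, ranged from 19.8 to 25.0, 21.6 to 25.2, and 22.9 to 24.6 FPKM in Th0, Th17, and iTreg libraries, with log2 fold changes of 0.12 (-0.11 to 0.36) and 0.12 (-0.092 to 0.34) and adjusted p = 0.46 and 0.44. For Smad2 and Smad4, the block did not bring either comparison past the threshold.

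Smad7 encodes the inhibitory SMAD that binds the type I receptor and recruits ubiquitin ligases to it. It was at 6.37, 8.80, 5.53, and 5.26 FPKM in Th0 libraries and at 32.3, 25.7, 17.4, and 32.96 FPKM in Th17 libraries (M22, M29, M42, and M43). In iTreg libraries, it was at 25.0, 26.5, 16.2, and 18.9 FPKM. Both polarized groups lay entirely above Th0, with M42 the lowest of each, and the rises were 1.89 ± 0.22 in Th17 (limma, adjusted p = 5.28e-04) and 1.61 ± 0.19 in iTreg cells (adjusted p = 8.62e-04). Smad7 varied more among the Th17 libraries than Smad3 did, with SDs of 7.26 and 1.87 FPKM around means of 27.1 and 28.3.

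Ski and Skil encode related nuclear corepressors that bind SMAD complexes on target genes. Ski (chr4:155154075-155222592, minus strand) was at 26.1, 28.96, 27.4, and 25.2 FPKM in Th0, 77.9, 69.7, 61.8, and 80.4 in Th17, and 64.0, 65.1, 51.4, and 57.9 in iTreg libraries. Th0 libraries lay within a narrow range, every polarized library was above it, and M42 was the lowest of both polarized groups. The log2 fold changes were 1.39 ± 0.11 (limma, adjusted p = 7.82e-05) and 1.13 ± 0.10 (adjusted p = 2.21e-04). Skil (chr3:31095058-31122577, plus strand) was at 16.3, 25.3, 18.7, and 15.9 FPKM in Th0, 51.8, 51.2, 44.1, and 52.3 in Th17, and 43.3, 52.6, 45.0, and 42.8 in iTreg libraries, with no overlap between polarized and Th0 libraries. It rose by 1.36 ± 0.15 (limma, adjusted p = 4.05e-04) and 1.26 ± 0.15 (adjusted p = 9.06e-04). The M29 library was the highest of Th0 for Skil, Smad7, Smad3, Ski, Smad2, Smad4, and Tgfbr2. Without the Th17 library with high Foxp3, the log2 fold changes of Smad3, Smad7, Ski, and Skil in Th17 were 1.95, 1.78, 1.34, and 1.34, and all 4 were still called (limma, adjusted p of 1.51e-04 to 0.00212).

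The order of levels per length differed between the groups. In Th0 cells, Tgfb1 (mean 110.3 FPKM) was followed by Tgfbr2 (32.9), Ski (26.9), Smad4 (21.9), and Skil (19.1), and the lowest were Tgfbr1 (10.4), Smad2 (9.39), Tgfbr3 (7.13), Smad3 (6.81), and Smad7 (6.49). In this order, Tgfb1 and Tgfbr2, Ski and Smad4, and Skil and Tgfbr1 were separated by all 4 libraries, and the other neighbours overlapped. In Th17 cells, the mean FPKM of Tgfb1 (95.3) was followed by Ski (72.5), Tgfbr1 (64.1), Skil (49.9), and Tgfbr2 (48.8), of which the last 4 overlapped from neighbour to neighbour, then by Smad3, Smad7, and Smad4, and by Smad2 (10.8) and Tgfbr3 (7.76) at the end. In iTreg cells, the mean FPKM of Tgfb1 (149.6) was followed by Tgfbr1 (93.4), Ski (59.6), Tgfbr2 (46.1), and Skil (45.9), then by Smad4 (23.6) and Smad7 (21.7), and by Smad3 (13.3), Smad2 (9.53), and Tgfbr3 (5.29), which were separated from each other by all 4 libraries. Tgfbr1 had rank 6 of 10 by its mean in Th0, rank 3 in Th17, and rank 2 in iTreg cells, and at each rank its libraries overlapped those of the next gene, Smad2, Skil, and Ski.

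Ratios of 2 genes within a library do not depend on how the library was scaled, and they allow Th17 and iTreg libraries to be compared directly. The Tgfbr1 to Tgfbr2 ratio was 0.353, 0.285, 0.289, and 0.342 in Th0 libraries (M22, M29, M42, and M43), so that the type I receptor RNA was the scarcer of the pair. It was 1.63, 1.26, 1.21, and 1.16 in Th17 libraries and 1.96, 1.84, 2.04, and 2.30 in iTreg libraries. The 3 groups did not overlap, with log2 differences of 2.04 between Th17 and Th0, 2.68 between iTreg and Th0, and 0.64 between iTreg and Th17. The M42 libraries, low for both receptor genes, were not set apart in this ratio.

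The Smad2 to Smad3 ratio was 1.22 to 1.56 in Th0, 0.333 to 0.435 in Th17, and 0.655 to 0.783 in iTreg libraries, again without overlap. Smad2 RNA was thus the more abundant of the pair in each Th0 library and Smad3 RNA in each polarized library, and the log2 ratio was 0.94 higher in iTreg than in Th17 cells. The Smad7 to Smad3 ratio was 1.33 to 2.01 in iTreg libraries, above the 0.771 to 1.09 of Th0 and the 0.573 to 1.26 of Th17. Th17 and Th0 overlapped in it (log2 difference of -0.023, exact permutation p = 0.94). The Skil to Ski ratio overlapped in all 3 comparisons, with log2 differences of -0.014 to 0.16. The Tgfb1 to Tgfbr2 ratio was 1.56 to 2.99 in Th17, 2.58 to 4.21 in Th0, and 2.55 to 4.67 in iTreg libraries, and these ranges overlapped too, although the Th17 library was the lower of each of the 4 pairs with Th0 (exact permutation p = 0.057). Of the 15 comparisons made, 8 had no overlap. Each of these 8 reached the smallest two-sided exact permutation p of 0.029, which becomes 0.054 after Benjamini-Hochberg adjustment over the 15, so none passed 0.05.

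**Figure D3:**
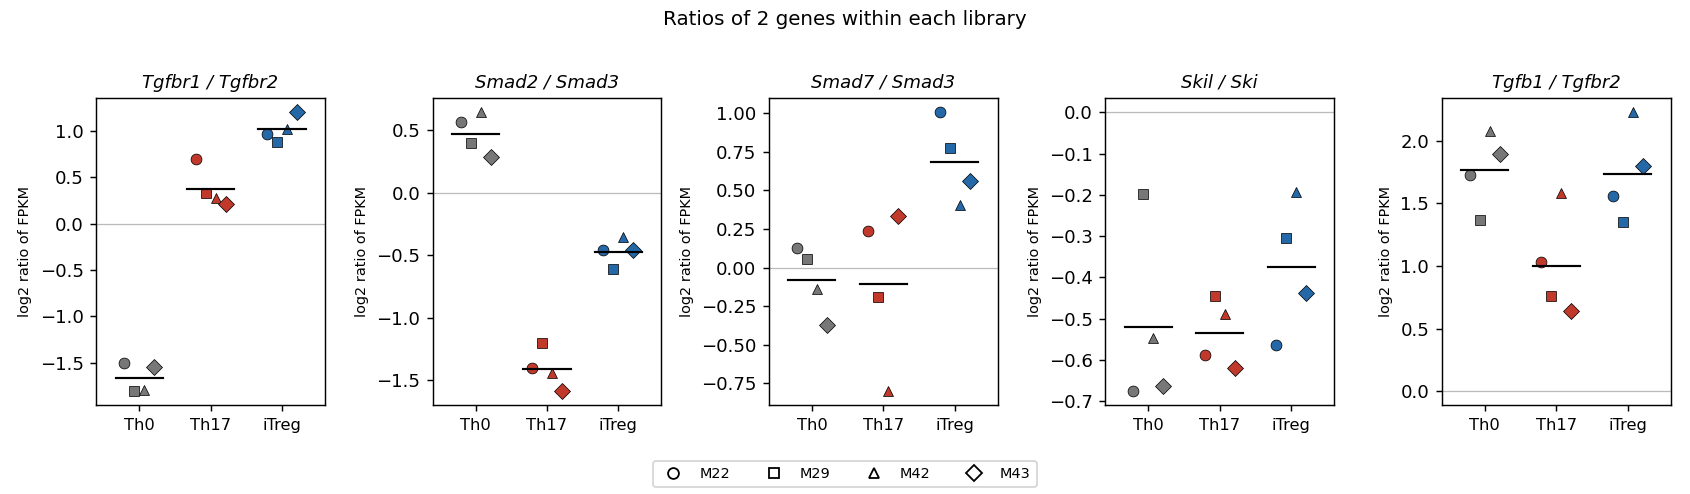
Log2 ratios of the FPKM of 2 genes within each library (vertical axes, each panel with its own range) for the 4 Th0, 4 Th17, and 4 iTreg libraries, with shapes for the beginning of the heading and lines for group means. The 3 groups are separate for Tgfbr1 to Tgfbr2 and for Smad2 to Smad3, and only iTreg is separate for Smad7 to Smad3.

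The genes whose log2(FPKM + 1) was most like that of Tgfbr1 over the 8 libraries of the Th17 table were Creb3l2 (Pearson r = 0.996), Mark4 (0.995), and Sdc3 (0.995). Over the 8 libraries of the iTreg table, they were Aqp3 (0.997), Furin (0.995), and Emp1 (0.993). These correlations are descriptions, since the 8 points share 2 groups and 4 heading beginnings. The mean FPKM rose from 1.79 to 65.5 for Aqp3, which encodes a water and glycerol channel, and from 9.33 to 119.4 for Emp1 in iTreg cells.

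The other genes of the pathway were read from lists in which the 10 genes also count. The lists were chosen with earlier results of these data known, so their counts are descriptions. Of all genes tested, 19.3% were called and 10.6% called up in Th17 cells, and 16.6% and 8.36% in iTreg cells. Of the 14 genes for ligands, latency, and activation, 5 were tested in each comparison. In Th17 cells, 1 was called up and 1 down (median log2 fold change of -0.21), and in iTreg cells 3 were called up and none down (median of 0.95). Furin, which encodes a protease that cleaves the TGFβ1 precursor, was at 16.4 to 24.3 FPKM in Th0 and 109 to 189 in Th17 libraries, and it rose in both comparisons, by 2.77 and 2.42 (limma, adjusted p = 2.80e-05 and 1.50e-04). Lrrc32, which encodes the GARP protein that anchors latent TGFβ on regulatory T cells, was at 5.91, 3.08, 0.980, and 1.89 FPKM in Th0 and 28.4, 16.5, 12.7, and 18.9 in iTreg libraries (M22, M29, M42, and M43) and rose by 2.44 (adjusted p = 0.00311). Since the M42 Th0 library was under 1 FPKM, the Th0 libraries of Lrrc32 alone would not have passed the filter. In Th17 libraries, Lrrc32 was at 0.0642, 0.0272, 0.658, and 5.47 FPKM, with the highest value in the M43 library that also had the high Foxp3. Nrros, whose product also holds latent TGFβ, fell by 1.46 on the log2 scale in Th17 cells (adjusted p = 0.0035).

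Of the 14 receptor genes of the wider TGFβ family, 10 were tested in Th17 and 9 in iTreg cells, and 5 and 6 of them were called up and none down, with median log2 fold changes of 0.82 and 1.21. Bmpr1a, among those called up in Th17, was at 0.534 to 0.789 FPKM in Th0 and 1.34 to 2.86 in Th17 libraries. It therefore passed the filter only through its Th17 libraries. Acvr2a, an activin type II receptor gene, was at 0.799 to 2.35 FPKM in Th0 and at 12.4 to 20.5 in Th17 libraries, and it rose by 2.96 in Th17 (limma, adjusted p = 4.86e-05) and 1.65 in iTreg cells (adjusted p = 0.00213). Bmpr2, a type II receptor gene for bone morphogenetic proteins, rose by 0.99 and 1.56 (adjusted p = 0.00546 and 3.00e-04). Acvrl1, a type I receptor gene, rose by 1.46 in Th17 (adjusted p = 0.00334) and 0.89 in iTreg cells (adjusted p = 0.023), and the latter call was lost in 5 of 8 fits without 1 library (adjusted p up to 0.0634). Acvr1, another gene of that type, rose by 1.48 in iTreg cells (adjusted p = 0.00521) and had a log2 fold change of 0.46 in Th17 cells (adjusted p = 0.16). In the iTreg comparison, Acvr1 was at 0.230 to 1.12 FPKM in Th0 libraries and Eng, also called up there, at 0.459 to 1.33. The Th0 libraries of Acvr1, Eng, and Acvr2a alone would not have passed the filter, so their calls depended on the polarized libraries. Among 6 SMAD genes tested of 8, Smad1 of the bone morphogenetic protein branch was the only one called beside Smad3 and Smad7, in Th17 cells only, by 0.45 (adjusted p = 0.0489), and this call was lost when any 1 of the 8 libraries was left out. The median log2 fold change of the SMAD list was 0.33 in Th17 and 0.082 in iTreg cells.

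Beside Ski and Skil, the list of 9 corepressor genes had 1 more called up and 2 called down in Th17 cells and no other called in iTreg cells, with medians of -0.0087 and -0.15. Tgif1 rose by 1.04 in Th17 (limma, adjusted p = 0.0253), while Tgif2 and the histone deacetylase gene Hdac1 fell by 0.46 and 0.43 on the log2 scale (adjusted p = 0.0207 and 0.0432). Each of these 3 calls was lost without some single library, with the largest adjusted p at 0.073, 0.065, and 0.12. Of 10 genes for ubiquitin ligases and deubiquitinases, 4 were called up in Th17 and 2 in iTreg cells, none down, with medians of 0.19 and 0.048. Smurf1 and Smurf2, the ligases that SMAD7 brings to the receptor, rose by 0.82 and 0.51 in Th17 (adjusted p = 0.0097 and 0.0236) and 0.69 and 0.46 in iTreg cells (adjusted p = 0.0186 and 0.0299). Without single libraries, the largest adjusted p was 0.071 for Smurf2 in Th17 and 0.057 and 0.082 for Smurf1 and Smurf2 in iTreg cells. Wwp1, another ligase gene, rose by 1.07 in Th17 (adjusted p = 2.23e-04), and Usp11, a deubiquitinase gene, by 0.93 (adjusted p = 0.00984).

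Pmepa1 and Ldlrad4 encode related membrane proteins that bind receptor-activated SMADs and limit signalling. Pmepa1 was at 5.13, 6.13, 6.01, and 6.31 FPKM in Th0, 64.0, 65.9, 58.5, and 53.6 in Th17, and 47.4, 53.8, 50.3, and 51.9 in iTreg libraries (M22, M29, M42, and M43). The libraries of a group were close together, and Pmepa1 rose by 3.16 in Th17 (limma, adjusted p = 1.02e-06) and 2.93 in iTreg cells (adjusted p = 1.56e-06). Ldlrad4 was at 3.77 to 8.33 FPKM in Th0 and 30.4 to 65.1 in Th17 libraries and rose by 2.90 and 1.86 (adjusted p = 1.63e-04 and 0.00125). They were the only 2 of 8 tested genes of their list of other receptor and SMAD regulators that were called in Th17 cells, and in iTreg cells Fkbp1a, whose product binds the type I receptor, also rose by 0.46 (adjusted p = 0.0467, up to 0.12 without 1 library). The medians of that list were 0.12 and 0.20. Of the 8 genes of the branch that does not use SMADs, 1 was called up in Th17, and 1 up and 2 down in iTreg cells, with medians of -0.0058 and -0.011. Traf6, which encodes a ubiquitin ligase bound to the receptor complex, was at 26.3 to 30.0 FPKM in Th0 and 69.8 to 83.5 in iTreg libraries and rose by 1.43 (adjusted p = 4.00e-05). The p38 kinase gene Mapk14 fell by 0.57 on the log2 scale in iTreg cells (adjusted p = 0.00444), as did Tab3 by 0.42 (adjusted p = 0.0496), and Tab2 rose by 0.31 in Th17 cells (adjusted p = 0.0437). The Tab2 and Tab3 calls were each lost without single libraries (largest adjusted p = 0.12 for both).

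A list of 16 symbols held genes known to be induced by TGFβ in other settings, with Ctgf and Ccn2 naming the same gene, not listed. Of these, 11 were tested in each comparison and 8 were called up in each, none down, with median log2 fold changes of 1.89 and 1.86. Of all genes tested, 10.6% and 8.36% were called up. Since this list too was chosen with earlier results known, its counts are no independent support. Smad7, Skil, Pmepa1, and Ldlrad4 are among the 8 in both. Nt5e, which encodes the ectonucleotidase CD73, rose by 2.92 and 3.28 (limma, adjusted p = 1.07e-04 and 3.27e-05), and Itgae, which encodes the integrin chain CD103, by 3.08 and 2.57 (adjusted p = 5.31e-04 and 0.00601). For Itgae, M42 was the lowest library of both polarized groups, at 4.74 and 2.62 FPKM. In Th0 libraries, Itgae was at 0.187 to 1.003 FPKM in the Th17 comparison and 0.185 to 0.994 in the iTreg comparison. Its Th0 libraries alone would not have passed the filter, so both calls depended on the group where it was high. Foxp3 rose by 3.81 in iTreg cells (adjusted p = 1.31e-04), and in Th17 libraries, which spanned 0.499 to 42.5 FPKM, its log2 fold change was -0.17 (adjusted p = 0.93). The ID genes encode inhibitors of basic helix-loop-helix factors that bone morphogenetic protein signals are known to induce. Id3 fell in both comparisons, by 1.75 and 1.63 on the log2 scale (adjusted p = 2.37e-04 and 6.83e-04), and Id2 rose by 1.41 in Th17 cells (adjusted p = 0.00117). Id1, listed only in the iTreg table, was at 0, 0.946, 0.229, and 0.340 FPKM in Th0 and 12.2, 8.45, 13.1, and 10.5 in iTreg libraries and was called up (adjusted p = 4.09e-05). All its Th0 values were under 1 FPKM, so it passed the filter only through its iTreg libraries. Its call and its place in the ID list therefore depended on the group where it was high. The median of the ID list was -0.17 over 2 genes in Th17 and 0.39 over 3 in iTreg cells.

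With the block, which called 37.8% of all genes in Th17 and 40.9% in iTreg cells, some list counts changed. In Th17 cells, the receptor list had 9 of 10 genes called up in place of 5, the corepressor list 4 up in place of 3, and the list without SMADs 2 up in place of 1. The list of induced genes kept 8 up in Th17 cells and had 1 down, Cdkn1a, which encodes a cell cycle inhibitor (-0.85, limma, adjusted p = 0.30, or 0.0132 with the block). In iTreg cells, that list had 10 up and none down, with Cdkn1a among them (0.88, adjusted p = 0.21, or 0.0144 with the block). The iTreg counts with the block were 4 up and 1 down of 5 for ligands and activation, 8 up and 1 down of 9 for receptors, 3 up and 3 down of 9 for corepressors, 4 up and 1 down of 8 for other regulators, 2 up and 2 down of 8 for the branch without SMADs, and 2 up and 1 down of 3 for the ID genes. The SMAD and ubiquitin lists had the same counts with and without the block. Cdkn1a was chosen for mention after its values were seen.

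**Figure D4:**
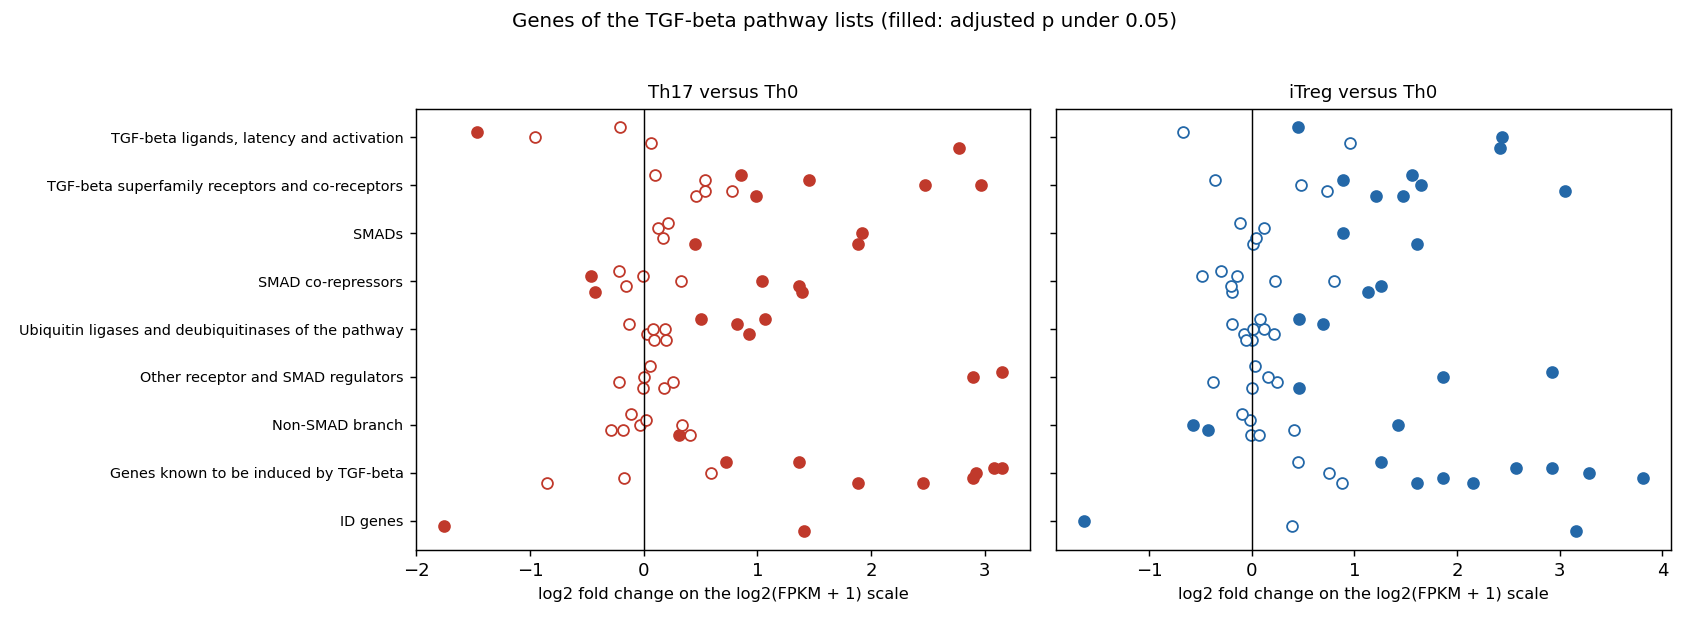
Log2 fold changes on the log2(FPKM + 1) scale (horizontal axes) of the tested genes of each pathway list, in Th17 (left) and iTreg cells (right). Each point is a gene, filled where the adjusted p was under 0.05. The list of genes known to be induced by TGFβ has 8 filled points of 11 in each comparison, all right of 0. The lists were chosen with earlier results of these data known.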

How the data were processed

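RNA of 12 cultures was sequenced. By the labels and the methods of the study, the authors mapped reads with TopHat2 2.0.14 to mm10, counted reads on exons with HTSeq (unstranded), filtered on CPM, and tested with edgeR. The authors deposited FPKM values in 2 tables, scaled separately, beside columns of their own fold changes and p-values, which were not used. The gene annotation was not given in the sources used here. Groups follow the labels. Columns were assigned to groups by their endings, not to numbered experiments.

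Genes above 1 FPKM in at least 4 of 8 libraries were tested with limma 3.58.1 (R 4.3.3) on log2(FPKM + 1), a scale that understates changes of low genes, with Benjamini-Hochberg adjustment over all genes tested. Group means of single genes and of log2 ratios were compared by two-sided exact permutation over 70 arrangements (Python 3.11.15, numpy 2.4.6). The p-values of the ratios were adjusted with scipy 1.17.1. The fit was tested on simulated data. Whole reads were recovered from the FPKM steps for 99.991% of genes, within 0.001 reads, and limma-voom on them was an alternative chosen after seeing the data. For each Th0 library, 1 factor of 1.01 related its values in both tables. Libraries with the same heading beginning had correlations of deviations of 0.450 to 0.784 (Th17) and 0.662 to 0.769 (iTreg), which was taken to pair them. Those with different beginnings had -0.590 to 0.434 (Th17) and -0.576 to 0.248 (iTreg), so the ranges nearly met in Th17. What the beginnings mark is not stated. The labels speak of biological replicates. Other settings were a pseudocount of 0.1, no filter, limma-trend, median-centred libraries, FDR 0.01, the replicate block, and leaving out each library.

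The 10 genes and the pathway lists were chosen with earlier results of these data known. Named genes were all 10, the genes past FDR 0.05 in a list (at most 4 with the largest change per direction and comparison), and the 3 genes most correlated with the most changed of the 10. Windows upstream of RefSeq start sites (GRCm38.p6) were searched for SMAD motifs on both strands, and gene positions come from GENCODE M21. Counting errors cover counting only.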

Additional observations from a re-analysis of the deposited data

Results flagged for a closer look

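For each of the 10 genes and Foxp3, the groups of 4 libraries were checked for a library far from the other 3, which made 33 groups, and chance marks about 1 group in 20. Skil in the Th17 library M42 was at 44.1 FPKM, below the 51.2 to 52.3 of the other 3 Th17 libraries, a gap of 0.864 of the whole range. Foxp3 in the Th17 library M43 was at 42.5 FPKM, above the 0.499 to 4.50 of the others, a gap of 0.905 of the range. The reason was not tested for either.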

How the results depend on the processing

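In the Th17 comparison, the same 5 of the 10 genes were called under all settings other than the replicate block and the fit without the M42 Th17 library, where Tgfbr2 was added. In the iTreg comparison, the same 6 were called under all settings other than FDR 0.01, which lost Tgfb1, the fit without the M42 iTreg library, which added Tgfbr2, and the replicate block, which added Tgfbr2 and Tgfbr3. Over all genes, the replicate block gave 3882 and 4170 calls in place of 1983 and 1691, FDR 0.01 gave 995 and 778, and limma-voom on recovered reads gave 1961 and 1754. For the named pathway genes other than the 10, 495 combinations of gene and setting kept the call and 75 lost it. The block changed no other call of the 10 genes. On leaving out 1 library, the log2 fold change of Tgfbr3 in Th17 ranged from -0.10 to 0.31, below 0 without the M22 Th17 (-0.0094), M42 Th0, or M43 Th17 library (-0.012), and that of Smad2 in iTreg from -0.010, without the M43 Th0 library, to 0.12. None of these had passed the test.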

Other observations

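Smad6, the gene for the other inhibitory SMAD, lay under the filter of 1 FPKM and was not tested. It was listed at 0.0449, 0.0857, 0.0364, and 0.0360 FPKM in Th0 libraries, at 0.990, 0.559, 0.691, and 0.785 in Th17, and at 0.802, 0.886, 0.373, and 0.376 in iTreg libraries (M22, M29, M42, and M43). Every polarized library was above every Th0 library. Values as low as those of Th0 rest on very few reads, so the size of the difference is uncertain. Bambi, which encodes a receptor-like protein without a kinase domain, was also under the filter in the iTreg table, at 0.0630 to 0.148 FPKM in Th0 and 0.308 to 0.5998 in iTreg libraries.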
